A study of Mus musculus with 8 samples.

Results

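Fibroblasts of the colon wall and the extracellular matrix they lay down were followed through 36 genes chosen by name. They comprised 5 fibrillar collagens, 7 genes of the basement membrane, 20 genes of other matrix and 4 genes of the fibroblast surface and cytoskeleton. Every mouse probe whose RefSeq accession belonged to 1 of these genes was taken, which gave 53 probes for 35 genes, and all 35 were among the 15854 features tested. Col6a3 had no matched probe and was not analysed here.

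The arrays measured RNA from scraped colon crypt epithelium of 5 PhIP mice and 3 PBS mice, with 1 array per mouse. All 8 were male hCYP1A humanized mice on a C57BL/6 background, 8 weeks old and fed AIN93M diet. PhIP, a heterocyclic amine that forms when meat is cooked, was given to 5 of them as 1 gavage dose of 200 mg/kg, and the PBS mice were given the buffer alone. Colons were taken after 24 hours, and the series was made to find genes whose expression PhIP changes. No mouse with the unmodified mouse locus was among the samples, and each titled mouse was counted as 1 replicate.

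Fibrillar collagens assemble into the rope-like fibres that carry tension in the submucosa and lamina propria. The basement membrane is a separate sheet of network collagen, laminin and nidogen that lies under the epithelium and around vessels and muscle. Fibroblasts make most of the fibrillar collagen of the gut wall, along with proteoglycans that space the fibres, glycoproteins that link them to cells and the elastic fibres that let the wall recoil. The RNA here came from the scraping as a whole, so fewer cells of a type and less RNA per cell cannot be told apart.

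The scan deposited with PhIP mouse 1 stood apart. Its scanner software found 7501 probes, or 21.38% of 35078, against 18861 to 20040 (53.77% to 57.13%) on the other arrays, and its median correlation with them was 0.77, against 0.97 or more for the rest. Values of PhIP mouse 1 in the authors' deposited matrix match the scan filed under PhIP mouse 2, and those of PhIP mouse 2 match none of the scans. Which scan came from which of these mice was therefore not settled, and values are named by the mouse under which a scan was filed. Among the 35 matrix genes, 12 were not found on the scan deposited with PhIP mouse 1 and 4 lay at the floor of the scale, a log2 intensity of 4.41, while all 35 were found on the other 7 arrays. PBS mouse 3 also stood apart for these genes: it was the highest of the 3 PBS arrays for 32 of 35 and the highest of the 7 for 31. It was also the single PBS array that shared its range of slide numbers with the PhIP arrays, and the single PBS array not re-dipped. Results are therefore given with all 8 arrays, with 7 arrays (without PhIP mouse 1) and with 6 arrays (without PhIP mouse 1 and PBS mouse 3). The last of these was chosen after the data were seen, and in it slide range and treatment cannot be told apart. As a check of the treatment labels, Cdkn1a, the p53 target that encodes p21, rose by 2.51 on the log2 scale (SE 0.17, adjusted p = 0.00601 by limma), with all 5 PhIP arrays above the 3 PBS arrays.

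PhIP arrays read lower than PBS arrays for most matrix genes, and the fibrillar collagens were the lowest group with 8, 7 and 6 arrays. Elastin was the lowest single gene with 7 and 6 arrays, and Col5a2 and Col1a1 lay below it with 8. With 7 arrays Eln was 2.86-fold lower, and the 5 fibrillar collagens were 1.92-fold (Col1a2) to 2.55-fold (Col3a1) lower. No matrix gene passed the test across all features with 8, 7 or 6 arrays. With 8 arrays, limma called 2 features higher (0.0126% of those tested) and 0 lower (0%), and 0 of the 35 members were among them. At an unadjusted p under 0.05, 13 of 35 members were lower, or 37.1%, against 1.63% of all features, and 0 were higher, against 1.44%. The PhIP and PBS arrays did not overlap, with PhIP lower, for 10 members, or 28.6%, against 2.08% of all features, and in the other direction for 0, against 3.67%. The members' median log2 fold change was -0.59, with 33 of 35 negative, beside a median of 0.01 and 48.9% negative over all features. These shares are descriptions, because the members are not independent of each other and were chosen with earlier results of these data known.

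The lower values persisted in part when the doubted arrays were left out. With 7 arrays the median was -0.49 and 34 of 35 were negative, beside 0.03 and 44.2% negative over all features. Of the members, 16 (45.7%) were lower at an unadjusted p under 0.05, against 3.46% of all features, and 11 (31.4%) had groups that did not overlap with PhIP lower, against 2.9%. None had groups apart with PhIP higher, against 5.98%. With 6 arrays the median was -0.27 and 25 of 35 were negative, beside 0.04 and 43.7% over all features. There, 13 members were lower at an unadjusted p under 0.05, against 5.81% of all features, and 13 did not overlap, against 9.59%. Limma passed 0 members with 7 arrays, where it called 5 features higher (0.0316%) and 0 lower. It also passed 0 with 6 arrays, where it called 6 higher (0.0385%) and 2 lower (0.0128%).

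**Figure D1:**
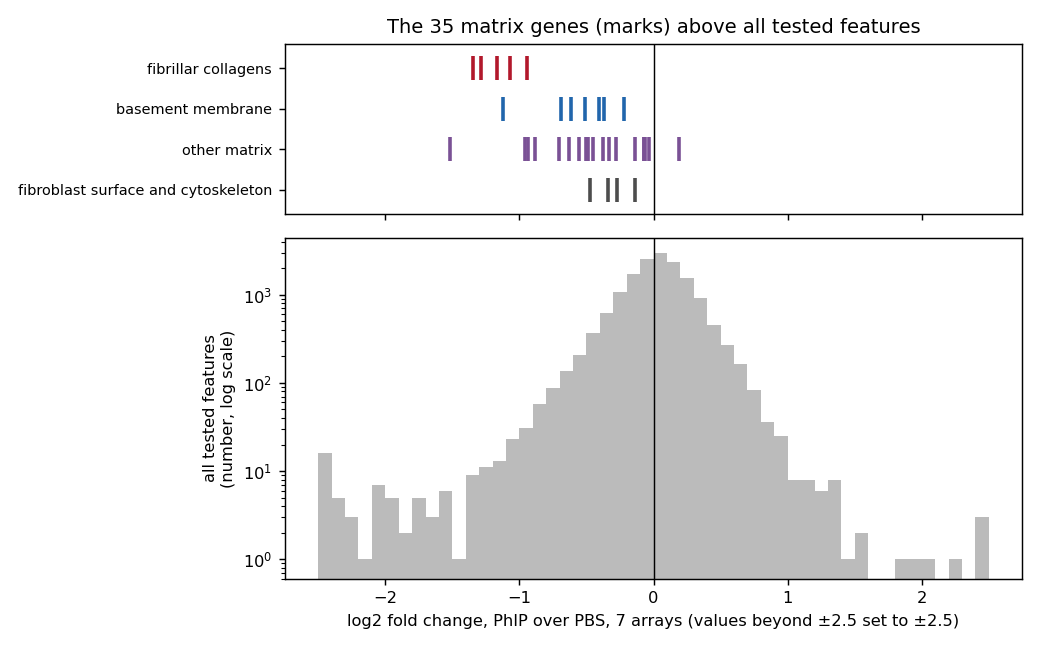
Log2 fold changes (PhIP over PBS, 7 arrays, horizontal axis) of the 35 matrix genes, drawn as 1 mark per gene in 4 rows by role, above a histogram of all tested features (vertical axis, number of features on a log scale). The 5 fibrillar collagens lie between -1.35 and -0.94, and of the 35 marks 34 lie left of 0, while the histogram centres near 0.03.

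The fibrillar collagens had the lowest median of the 4 gene groups, at -1.34 with 8 arrays, -1.17 with 7 and -0.86 with 6. All 5 genes were negative in each of these comparisons, and all 5 had an unadjusted p under 0.05 in each, against 1.63%, 3.46% and 5.81% of all features lower at that p. Groups did not overlap for 4 of the 5 with 8 arrays, against 2.08% of all features with PhIP lower, and for 5 of 5 with 7, against 2.9%, and with 6, against 9.59%. Of the 5, 3 had a start region in the RefSeq table of assembly GRCm38.p6, and these are shown because the genes were low together on the same arrays. Each is the 250 bases before the annotated start, on the + strand, at chr6:4505368-4505617 for Col1a2, chr1:45311288-45311537 for Col3a1 and chr2:27886175-27886424 for Col5a1. Capitals mark the CCAAT box, the letters TATAAA of a TATA box and the letters GGGCGG of a GC box, each searched on both strands, and no match overlapped another in these regions.
Col1a2: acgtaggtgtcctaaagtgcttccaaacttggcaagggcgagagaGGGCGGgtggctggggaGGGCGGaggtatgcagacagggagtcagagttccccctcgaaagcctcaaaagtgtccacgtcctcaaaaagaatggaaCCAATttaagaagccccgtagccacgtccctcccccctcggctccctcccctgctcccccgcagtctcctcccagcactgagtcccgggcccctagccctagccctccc
Col3a1: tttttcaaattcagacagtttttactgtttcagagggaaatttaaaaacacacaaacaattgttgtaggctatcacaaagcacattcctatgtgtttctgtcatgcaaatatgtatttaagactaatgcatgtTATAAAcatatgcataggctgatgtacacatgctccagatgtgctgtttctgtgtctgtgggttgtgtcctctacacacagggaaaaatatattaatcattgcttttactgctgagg
Col5a1: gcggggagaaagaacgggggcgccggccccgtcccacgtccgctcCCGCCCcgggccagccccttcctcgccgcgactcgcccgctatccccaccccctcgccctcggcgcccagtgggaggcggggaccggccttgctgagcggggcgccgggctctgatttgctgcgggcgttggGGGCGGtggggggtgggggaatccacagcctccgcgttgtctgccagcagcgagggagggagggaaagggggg
No motif was held by all 3 start regions, and GGGCGG was held by Col1a2 and Col5a1. Col1a2 held 1 CCAAT and 2 GGGCGG with 62.0% GC, Col3a1 held 1 TATAAA with 35.2% GC, and Col5a1 held 2 GGGCGG, 1 of them as CCGCCC on the other strand, with 76.4% GC. Of 32851 windows of the same length in the table, 33.85% held the letters CCAAT, 12.37% TATAAA and 32.74% GGGCGG. Of the 21 members with a window, 8 held the first, 3 the second and 12 the third.

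Type I collagen is a heterotrimer of the chains encoded by Col1a1 and Col1a2. Col1a1 had log2 intensities of 9.04, 11.31, 11.24, 11.00 and 10.94 on the arrays of PhIP mice 1 to 5, and 11.90, 12.08 and 13.29 on those of PBS mice 1 to 3. Every PhIP array lay below every PBS array, with PhIP mouse 1 far below the other PhIP arrays and PBS mouse 3 far above the other PBS arrays. With 8 arrays its fold change was -1.72 on the log2 scale (SE 0.56, limma adjusted p = 0.837), with 7 it was -1.29 (SE 0.32, adjusted p = 0.325), or 2.44-fold lower, and with 6 it was -0.86 (SE 0.13, adjusted p = 0.127). For Col1a2 the values were 10.74, 10.16, 9.90, 9.97 and 9.93 in PhIP mice 1 to 5, and 10.58, 10.70 and 11.52 in PBS mice 1 to 3. Here the scan of PhIP mouse 1 was the highest of its group and lay above 2 PBS arrays, and the other 4 PhIP arrays lay below all 3. The log2 fold change of Col1a2 was -0.80 (SE 0.28) with 8 arrays, -0.94 (SE 0.22, limma adjusted p = 0.305) with 7 and -0.65 with 6. Relative to the other PhIP arrays, the scan of PhIP mouse 1 thus read low for Col1a1 and high for Col1a2, while on PhIP mice 2 to 5 both chains lay below every PBS array.

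Type III collagen, the product of Col3a1, forms the fine fibres of distensible organs and is laid down with type I. Col3a1 stood at 10.18, 10.31, 10.22, 9.74 and 9.98 in PhIP mice 1 to 5, and at 10.91, 11.13 and 12.24 in PBS mice 1 to 3. The groups did not overlap, and PhIP mouse 1 lay within the range of the other PhIP arrays. Its fold change was 2.55-fold lower with 7 arrays, a log2 value of -1.35 (SE 0.31, limma adjusted p = 0.298), against -1.34 with 8 and -0.95 with 6. A second probe for Col3a1 was at or near the floor on every array and could not show the size of a difference.

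Type V collagen starts the assembly of type I fibres, and Col5a1 and Col5a2 encode its chains. Col5a1 had 8.91, 8.72, 8.95, 8.67 and 8.54 in PhIP mice 1 to 5, and 9.50, 9.43 and 10.46 in PBS mice 1 to 3. Without overlap, the 5 PhIP arrays lay close together and PBS mouse 3 lay about 1 unit above its group. Col5a1 had a log2 fold change of -1.04 (SE 0.26) with 8 arrays, -1.07 (SE 0.25, limma adjusted p = 0.306) with 7 and -0.74 with 6. Col5a2, which neighbours Col3a1 in the genome, had 4.41, 7.53, 7.23, 7.08 and 7.004 in PhIP mice 1 to 5, and 8.40, 8.33 and 8.42 in PBS mice 1 to 3. It was the fibrillar collagen for which PBS mouse 3 did not stand apart, at 0.05 above the mean of the other PBS arrays, against 0.88 to 1.30 for the other 4. The 3 PBS arrays lay close together, every PhIP array lay below them, and PhIP mouse 1 was at the floor. The log2 fold change was -1.73 (SE 0.68) with that scan among the 8 arrays. With 7 arrays it was -1.17 (SE 0.16, limma adjusted p = 0.124), the smallest adjusted p of any member there. With 6 arrays it was -1.15 (SE 0.19, limma adjusted p = 0.13). A second Col5a2 probe had -1.16 (SE 0.32) with 7 arrays.

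Batch values differed in size and kept their sign. Within the arrays not re-dipped, which hold PhIP mice 2, 4 and 5 and PBS mouse 3, the fibrillar median was -1.80. In the re-dipped arrays, which hold PhIP mice 1 and 3 and PBS mice 1 and 2, it was -0.83. The low-signal scan of PhIP mouse 1 is among these, and Col1a2 had -0.33 and Col1a1 -1.86 there. With slide range as a block the fibrillar median was -1.77, an estimate that rests on PBS mouse 3 alone. Leaving out PhIP mouse 1 as well, a setting chosen after the data were seen, gave the calls in which 4 of the 5 fibrillar collagens passed. Limma then called 16 features lower (0.101%) and 6 higher (0.0379%), and 4 of the 35 members were among the lower ones. On the log2 scale Col1a1 fell by 2.15 (limma adjusted p = 0.0269), Col1a2 fell by 1.53 (adjusted p = 0.0269), Col3a1 fell by 2.15 (adjusted p = 0.0468) and Col5a1 fell by 1.72 (adjusted p = 0.0337). That fit sets 4 PhIP arrays against 1 PBS array, PBS mouse 3. Its residual spread comes from those PhIP arrays and from PBS mice 1 and 2. The distance of PBS mouse 3 from the other PBS arrays is therefore not counted in these calls. In the authors' deposited matrix limma called 7 features lower (0.0442%) and 13 higher (0.082%), and Col5a2 was the member among them. Col5a2 fell by 1.15 there (limma adjusted p = 0.0179).

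**Figure D2:**
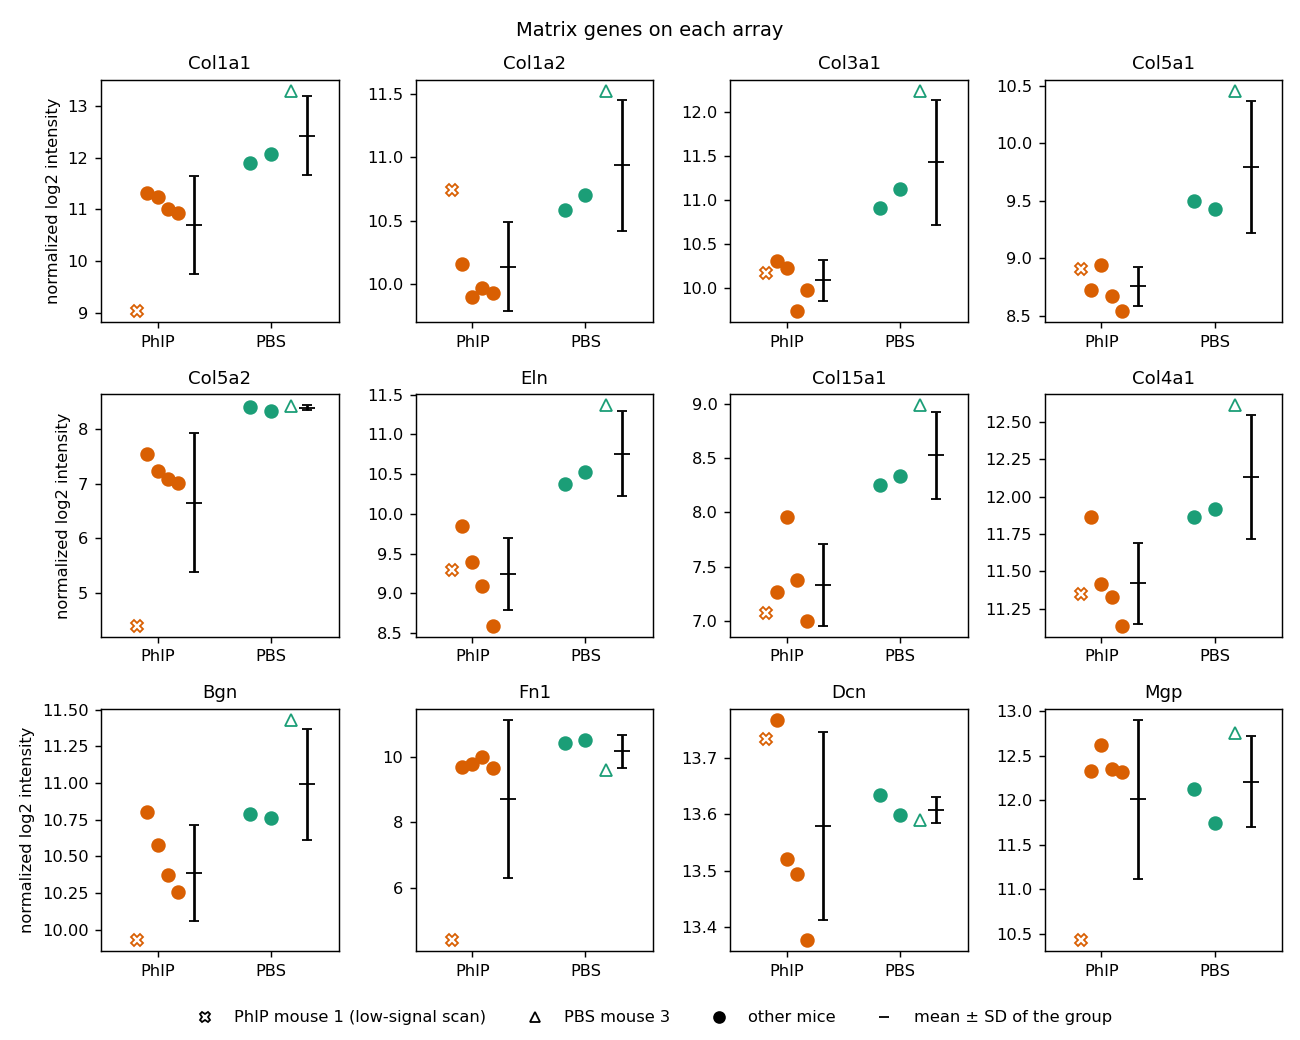
Normalized log2 intensity (vertical axis, with its own range in each panel) of 12 matrix genes on the 5 PhIP and 3 PBS arrays, with bars for the group mean ± SD. The crosses mark PhIP mouse 1 and the triangles PBS mouse 3. The groups do not overlap for Col1a1, Col3a1, Col5a1, Col5a2, Eln, Col15a1 and Col4a1, while they do for Col1a2, Bgn, Fn1, Dcn and Mgp.

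The 7 basement membrane genes had a median of -0.59 with 8 arrays, -0.51 with 7 and -0.33 with 6. With 7 arrays all 7 were negative, 4 had an unadjusted p under 0.05, against 3.46% of all features lower at that p, and the groups did not overlap for 2, against 2.9%. The re-dipped arrays alone gave a median of -0.50, and the others alone -0.94.

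Type IV collagen forms the network of every basement membrane, and its most widespread chains come from Col4a1 and Col4a2, which start next to each other on opposite strands. Their RefSeq windows of 300 bases around the start overlap by 78 bases. Col4a1 had log2 intensities of 11.35, 11.86, 11.42, 11.33 and 11.14 in PhIP mice 1 to 5, and 11.86, 11.92 and 12.61 in PBS mice 1 to 3. The groups only just failed to overlap, since PhIP mouse 2 lay at the level of PBS mouse 1. The log2 fold change was -0.71 (SE 0.22) with 8 arrays, -0.69 (SE 0.23, limma adjusted p = 0.433) with 7 and -0.45 with 6. Col4a2 had 11.87, 12.53, 12.20, 12.19 and 11.99 in PhIP mice 1 to 5, and 12.47, 12.65 and 13.12 in PBS mice 1 to 3. PhIP mouse 2 was again the highest of its group and here lay above PBS mouse 1, so the groups overlapped. The values for Col4a2 were -0.59 (SE 0.20) with 8 arrays, -0.51 (SE 0.18, limma adjusted p = 0.458) with 7 and -0.33 with 6.

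Types XV and XVIII are proteoglycan collagens of the zone where the basement membrane meets the stroma. Col15a1 had the largest 7-array difference of this group, with 7.08, 7.27, 7.96, 7.38 and 7.004 in PhIP mice 1 to 5, and 8.26, 8.33 and 8.98 in PBS mice 1 to 3. All PhIP arrays lay below all PBS arrays, although PhIP mouse 1's spot was not scored as found. That made it 2.17-fold lower with 7 arrays, with a log2 fold change of -1.12 (SE 0.27, limma adjusted p = 0.32), and -0.89 with 6. Col18a1 had 9.66, 9.37, 9.93, 9.67 and 9.67 in PhIP mice 1 to 5, and 9.78, 9.99 and 10.33 in PBS mice 1 to 3. The groups overlapped through PhIP mouse 3, and the fold change was -0.37 on the log2 scale (SE 0.17, limma adjusted p = 0.562) with 7 arrays and -0.22 with 6.

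Laminins and nidogen build and bridge the other network of the sheet. Nid1, which encodes nidogen, had -0.61 (SE 0.20) with 7 arrays and -1.37 (SE 0.89) with 8, where PhIP mouse 1 lay at 5.84 and the other PhIP arrays between 9.28 and 9.99. Lamb1, for a laminin beta chain, had -0.41 (SE 0.22) with 7 arrays and -0.17 with 6. Lama4, for the laminin alpha chain of vessels and muscle, had the value nearest 0 of the group, -0.22 (SE 0.22) with 7 arrays, 0.00 with 8 and 0.03 with 6.

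The 19 measured genes of other matrix had a median of -0.56 with 8 arrays, -0.45 with 7 and -0.24 with 6, and they spread widely, between -1.51 and 0.19 with 7. From the re-dipped arrays alone it was -0.36, and from the others alone -0.99.

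Elastic fibres hold an elastin core on a scaffold of fibrillin, and their 5 genes had a median of -0.63 with 7 arrays. Eln, which encodes elastin, had the most negative 7-array value of all 35 members. Its log2 intensities were 9.29, 9.85, 9.39, 9.09 and 8.59 in PhIP mice 1 to 5, and 10.38, 10.53 and 11.37 in PBS mice 1 to 3. Every PhIP array lay well below the lowest PBS array, PhIP mouse 1 lay inside its group, and PhIP mouse 5 was lowest. Elastin was 2.86-fold lower with 7 arrays, a log2 fold change of -1.51 (SE 0.34, limma adjusted p = 0.277). With 8 arrays it was also -1.51 (SE 0.32, adjusted p = 0.837), and with 6 arrays -1.22 (SE 0.31, adjusted p = 0.215). Fbn1, for fibrillin, had -0.88 (SE 0.27) with 7 arrays, without overlap, and -0.52 (SE 0.51) with 8, since PhIP mouse 1 at 9.58 lay above every PBS array. Fbln2, for fibulin 2 of elastic fibres and basement membranes, had -0.63 (SE 0.12, limma adjusted p = 0.225) with 7 arrays and -0.58 with 6, so it depended little on PBS mouse 3. Mfap5, for a microfibril protein, had -0.33 (SE 0.40) with 7 arrays and 0.11 with 6. Fbln1, for fibulin 1, had -0.14 (SE 0.28) with 7, 0.10 with 8 and 0.24 with 6 from its brightest probe. Its other probes had -0.30 (SE 0.20) and -0.16 (SE 0.14) with 7 arrays. With 8 they had -0.20 and -0.95, the latter with PhIP mouse 1 at the floor.

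Type VI collagen forms beaded filaments around cells, and Col6a1 and Col6a2, which are neighbours in the genome, encode chains of it. Col6a2 had 8.09, 7.91, 8.80, 8.11 and 8.08 in PhIP mice 1 to 5, and 8.90, 8.70 and 9.97 in PBS mice 1 to 3. PhIP mouse 3 stood above its group and above PBS mouse 2, while the other 4 PhIP arrays lay below all PBS arrays. Col6a2 had a log2 fold change of -0.99 (SE 0.34) with 8 arrays, -0.96 (SE 0.34, limma adjusted p = 0.462) with 7 and -0.57 with 6. For Col6a1 the log2 intensities were 11.59, 11.68, 11.77, 11.59 and 11.39 in PhIP mice 1 to 5, and 11.89, 11.81 and 12.80 in PBS mice 1 to 3. The gap between PhIP mouse 3 and PBS mouse 2 was narrow, and most of the difference came with PBS mouse 3. Col6a1 had -0.56 (SE 0.24, limma adjusted p = 0.536) with 7 arrays and -0.24 with 6. Col14a1, for a collagen on the surface of fibres, had -0.28 (SE 0.36) with 7 arrays and 0.07 with 6.

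Small proteoglycans and adhesive glycoproteins differed among themselves. Their 7 genes had a median of -0.61 with 8 arrays, -0.38 with 7 and -0.17 with 6, and the 8-array value includes 2 genes at the floor on PhIP mouse 1. Dcn encodes decorin, which binds the surface of collagen fibres and is a common fibroblast marker. Its brightest probe had 13.73, 13.77, 13.52, 13.49 and 13.38 in PhIP mice 1 to 5, and 13.63, 13.60 and 13.59 in PBS mice 1 to 3. The groups overlapped, with PhIP mice 1 and 2 above all PBS arrays and PhIP mice 3, 4 and 5 below them. The log2 fold change was -0.03 (SE 0.13) with 8 arrays and -0.07 (SE 0.10) with 7, and the sign turned with the array scaling, at 0.42 with arrays scaled to a common 75th percentile. The other 3 Dcn probes had -0.41 (SE 0.33), -0.43 (SE 0.21) and -0.74 (SE 0.27) with 7 arrays, so the probe chosen by brightness gave the value nearest 0 for this gene.

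Bgn encodes biglycan, a close relative of decorin. It had 9.93, 10.80, 10.58, 10.37 and 10.26 in PhIP mice 1 to 5, and 10.79, 10.76 and 11.43 in PBS mice 1 to 3. PhIP mouse 2 lay at the level of PBS mice 1 and 2, and the other PhIP arrays below them. The log2 fold change was -0.61 (SE 0.24) with 8 arrays, -0.49 (SE 0.20, limma adjusted p = 0.517) with 7 and -0.27 with 6. Fn1 encodes fibronectin, which ties collagen to cell surface integrins. It had 4.41, 9.70, 9.78, 9.99 and 9.66 in PhIP mice 1 to 5, and 10.40, 10.50 and 9.58 in PBS mice 1 to 3. On this probe PBS mouse 3 was 0.86 below the mean of the other PBS arrays. It also lay below PhIP mice 2 to 5, the opposite of its place for the collagens. With 7 arrays Fn1 had -0.38 (SE 0.22), and with 6 it had -0.67 (SE 0.12, limma adjusted p = 0.13). A second bright Fn1 probe had -0.38 (SE 0.11) with 7 arrays. There PBS mouse 3, at 9.33, was again the lowest PBS array. It lay above PhIP mice 2 to 5, at 9.03, 9.17, 9.09 and 8.99.

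Among the remaining 4 genes of this kind, Sparc, for a collagen-binding protein of remodelling matrix, had -0.93 (SE 0.27) with 7 arrays and -0.73 with 6. Postn, for periostin, had -0.45 (SE 0.29) from its brighter probe and -1.41 (SE 0.30) from a dimmer one. Lum, for the proteoglycan lumican, whose gene neighbours Dcn, had -0.07 (SE 0.23) with 7 arrays, and its -0.86 with 8 came with PhIP mouse 1 at the floor. Mgp, for matrix Gla protein, an inhibitor of calcification, was the single member with a positive 7-array value, 0.19 (SE 0.22). Its arrays read 10.43, 12.33, 12.62, 12.35 and 12.32 in PhIP mice 1 to 5, and 12.13, 11.74 and 12.76 in PBS mice 1 to 3. Without PBS mouse 3 the 4 remaining PhIP arrays lay above both PBS arrays, with a log2 fold change of 0.47 (SE 0.14), the single member among the 14% of all features with PhIP higher and no overlap.

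Enzymes of crosslinking and turnover had the least negative median of the other matrix, at -0.29 with 7 arrays and -0.15 with 6. Lox and Loxl1 encode lysyl oxidases, which crosslink collagen and elastin. Lox had -0.50 (SE 0.32) and Loxl1 -0.71 (SE 0.33) with 7 arrays, while the other, dimmer Loxl1 probe had 0.05 (SE 0.15). Loxl1 was the exception among 9 members with more than 1 fitted probe, of which 8 had probes of 1 sign with 7 arrays. Mmp2, for a gelatinase secreted by stromal cells, had -0.07 (SE 0.33) with 7 arrays and 0.37 (SE 0.15) with 6. Together with Mgp it made up the 2 members higher at an unadjusted p under 0.05 with 6 arrays, against 8.06% of all features. Timp2, for an inhibitor of such proteases that also takes part in activating Mmp2, had -0.03 (SE 0.11) with 7 arrays and 0.00 with 6.

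**Figure D3:**
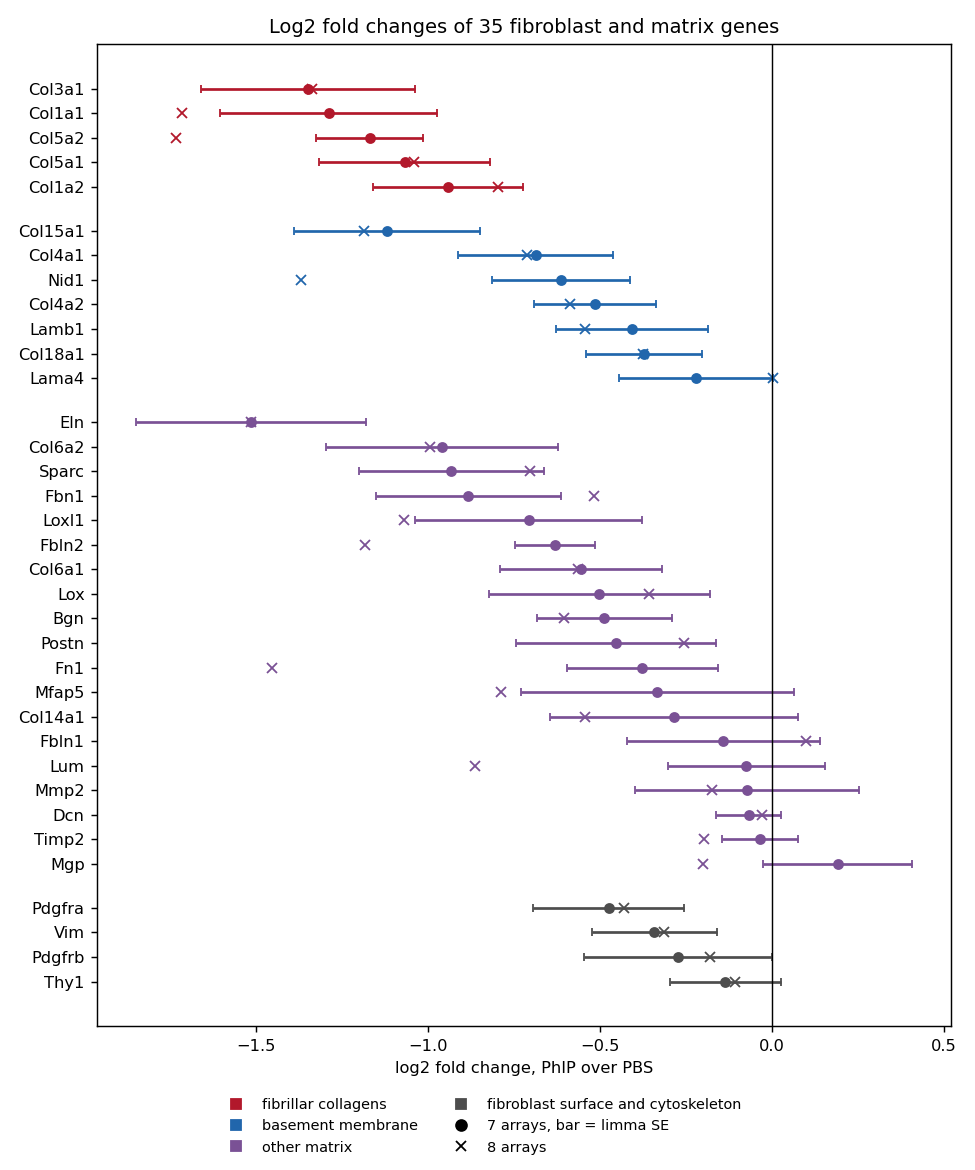
Log2 fold change (PhIP over PBS, horizontal axis) of each of the 35 measured genes, ordered by role and then by value, with 7 arrays as points with limma SE bars and with 8 arrays as crosses. The crosses of Fn1 at -1.45 and Nid1 at -1.37 lie far to the left of their points, with the scan of PhIP mouse 1 at 4.41 for Fn1 and 5.84 for Nid1, below the other PhIP arrays.

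The 4 genes that mark fibroblasts by their surface or cytoskeleton had the least negative median of the 4 groups, at -0.25 with 8 arrays, -0.31 with 7 and -0.10 with 6. Pdgfra encodes the receptor by which fibroblasts of the gut receive platelet-derived growth factor. It had 10.52, 10.66, 10.32, 9.99 and 10.14 in PhIP mice 1 to 5, and 10.57, 10.47 and 11.22 in PBS mice 1 to 3. PhIP mice 1 and 2 lay among the PBS arrays and PhIP mice 3, 4 and 5 below them. Pdgfra had a log2 fold change of -0.43 (SE 0.23) with 8 arrays, -0.47 (SE 0.22, limma adjusted p = 0.569) with 7 and -0.24 with 6. Vim encodes vimentin, the intermediate filament of mesenchymal cells. Its values were 11.36, 11.63, 11.60, 11.57 and 11.51 in PhIP mice 1 to 5, and 11.74, 11.83 and 11.97 in PBS mice 1 to 3. All PhIP arrays lay just below all PBS arrays, and the fold change was -0.31 on the log2 scale (SE 0.12, limma adjusted p = 0.837), though 0.03 with arrays scaled to a common 75th percentile. With 7 arrays another Vim probe was the brightest and had -0.34 (SE 0.18), while the first had -0.27 (SE 0.07). Pdgfrb, the receptor of pericytes and fibroblasts, had -0.27 (SE 0.27) and Thy1, a surface glycoprotein of fibroblasts, had -0.14 (SE 0.16) with 7 arrays, and with 6 they had 0.04 and 0.01.

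The contrast between groups of genes was similar on the arrays of PhIP mice 2 to 5. On the low-signal scan of PhIP mouse 1, normalized with all 8 arrays, it differed. There the means against PBS were -1.94 for fibrillar collagens, -1.15 for basement membrane, -1.27 for other matrix and -0.13 for the surface and cytoskeleton genes. Against the PBS mean, the fibrillar collagens averaged -0.98, -1.08, -1.29 and -1.31 on PhIP mice 2 to 5, and -0.33, -0.26 and 0.59 on PBS mice 1 to 3. The basement membrane genes averaged -0.47, -0.39, -0.66 and -0.73 on PhIP mice 2 to 5, and -0.27, -0.15 and 0.42 on PBS mice 1 to 3. For the other matrix genes the means were -0.26, -0.30, -0.62 and -0.68 on PhIP mice 2 to 5, and -0.22, -0.22 and 0.45 on PBS mice 1 to 3. Within the PBS group the 3 gene groups thus shared the high position of PBS mouse 3, and within the PhIP group mice 4 and 5 were lower than mice 2 and 3 in each. The fibrillar mean minus the basement membrane mean was -0.51, -0.69, -0.63 and -0.57 on PhIP mice 2 to 5, a mean of -0.60 ± 0.08 (SD, n = 4), and -0.06, -0.11 and 0.17 on PBS mice 1 to 3 (SD 0.15, n = 3, centred on 0). The fibrillar mean minus the other matrix mean was -0.70 ± 0.06 (SD, n = 4) in PhIP mice, against 0 ± 0.13 (SD, n = 3) in PBS mice. In both, the 4 PhIP values lay below the 3 PBS values. The basement membrane minus the other matrix differed less, at -0.10 ± 0.08 (SD, n = 4) in PhIP mice against 0 ± 0.07 (SD, n = 3) in PBS mice. These differences were given no test, since the groups of genes were formed with earlier results of these data known.

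**Figure D4:**
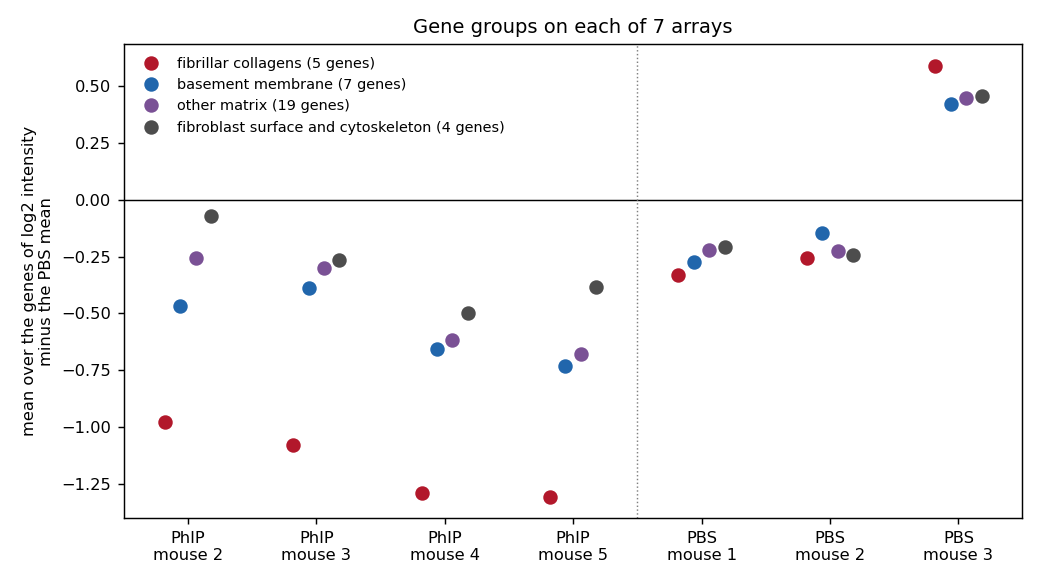
Mean over the genes of a group of log2 intensity minus the PBS mean (vertical axis) on each of 7 arrays, with PhIP mice 2 to 5 left of PBS mice 1 to 3 and 1 colour per group of genes. The fibrillar collagens lie below the other 3 groups on each PhIP array, at -0.98 to -1.31, and PBS mouse 3 lies above the other arrays for all 4 groups.

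Leaving out PBS mouse 3 brought the medians of all 4 gene groups nearer 0, and that of the fibrillar collagens moved most. It was -0.86 with 6 arrays and -1.17 with 7, against -0.33 and -0.51 for the basement membrane, -0.24 and -0.45 for other matrix and -0.10 and -0.31 for the surface and cytoskeleton genes. All 5 fibrillar collagens were still negative with 6 arrays. Of the 19 other matrix genes, 12 were then negative and 7 positive, and of the 4 surface and cytoskeleton genes 2 were negative. Eln, Col5a2, Col3a1, Col15a1 and Col1a1 kept the most negative values with 6 arrays, between -1.22 and -0.86. Col5a2 and Fbln2 changed least among the genes without overlap, since PBS mouse 3 lay near the other PBS arrays for both.

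**Figure D5:**
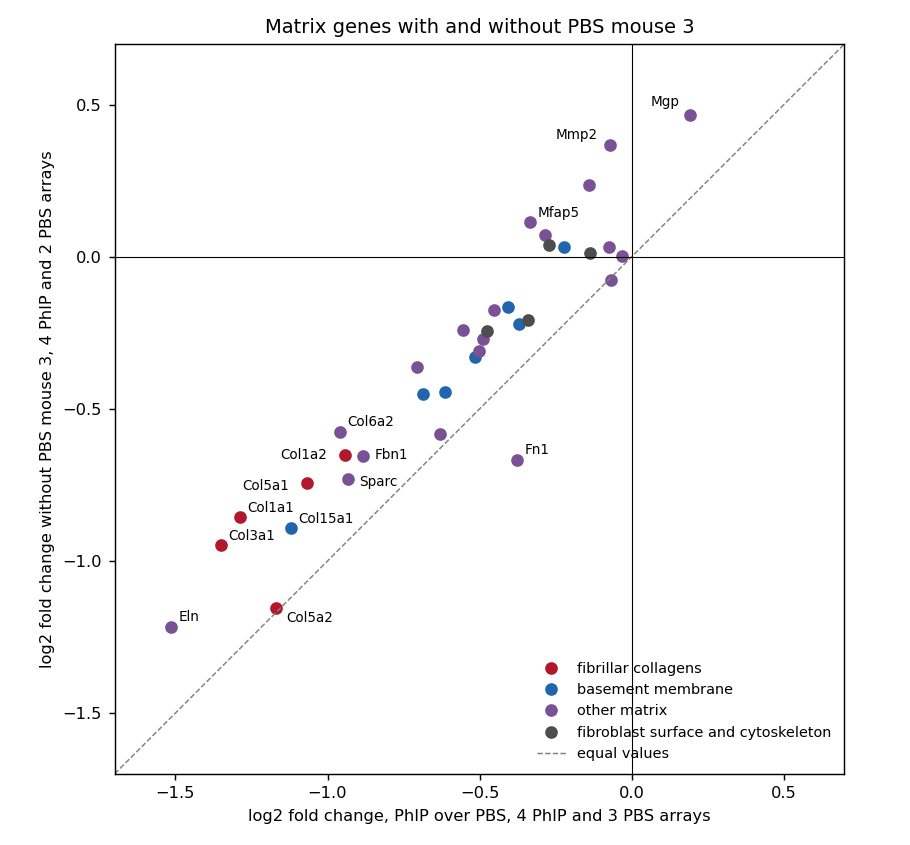
Log2 fold change (PhIP over PBS) without PBS mouse 3, from 4 PhIP and 2 PBS arrays (vertical axis), against that with it, from 4 PhIP and 3 PBS arrays (horizontal axis), for each of the 35 genes. Most points lie above the dashed line of equal values, Col5a2 lies on it at about -1.16, and Fn1 lies below it.

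Other genes that make, modify or sense matrix gave a smaller difference as lists. Negative values still prevailed among the collagen processing genes and the further collagens and matrix. With 7 arrays 16 of 16 and 26 of 31 were negative, against 44.2% of all features. With 8 arrays 12 of 16 and 21 of 31 were, against 48.9%. Of 16 measured collagen processing genes, the median was -0.38 with 8 arrays and -0.19 with 7, and 3 were lower and 0 higher at an unadjusted p under 0.05 in each, against 1.63% lower of all features with 8 arrays and 3.46% with 7. Adamts2, the protease that trims the amino end of fibrillar procollagens, had -1.11 (SE 0.28) with 8 arrays and -0.86 (SE 0.22, limma adjusted p = 0.334) with 7. Ppib, a proline isomerase of collagen folding, had -0.34 (SE 0.07) and Loxl2, a further lysyl oxidase, -0.68 (SE 0.23) with 7 arrays. Of 31 measured genes of further collagens and matrix the median was -0.26 with 8 arrays and -0.27 with 7, and with 7 arrays 7 were lower and 1 higher at an unadjusted p under 0.05, against 3.46% lower and 5.81% higher of all features. The 1 of 31 higher is near its background share. Spon1, for the matrix protein spondin 1, had -1.04 (SE 0.32) with 8 arrays and -1.19 (SE 0.21, limma adjusted p = 0.194) with 7, and Aspn, for the decorin relative asporin, had -0.89 (SE 0.26) and -0.78 (SE 0.22).

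Ligands, receptors and proteases around the matrix lay nearer 0. The 16 measured matrix proteases and inhibitors had a median of 0.03 with 8 arrays and 0.00 with 7, with Adamts1, a protease of proteoglycans, at -0.81 (SE 0.31) with 7. Of these 16, 3 were lower and 0 higher at an unadjusted limma p under 0.05 with 7 arrays, against 3.46% and 5.81% of all features. The 15 measured genes of the TGF-beta pathway, which drives collagen synthesis in fibroblasts, had medians of -0.11 with 8 arrays and -0.01 with 7, with 1 lower and 1 higher at an unadjusted p under 0.05 with 7, shares near the 3.46% and 5.81% of all features. The 17 matrix receptors had -0.19 with 8 arrays and -0.10 with 7, and Dag1, for dystroglycan, a laminin receptor, had -0.34 (SE 0.13) with 7. The 9 PDGF ligands and growth factors had -0.15 and 0.03, with Igf1, a growth factor made by stromal cells, at -0.86 (SE 0.22, limma adjusted p = 0.326) with 7. No gene of these lists passed with 8 or with 7 arrays.

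Markers of other cells in the scraping were read beside these values. Of 15 epithelium markers 10 were tested, with a median of 0.09 with 7 arrays. All 10 were positive there, where 44.2% of all features were negative, and 8 were positive with 8 arrays. At an unadjusted limma p under 0.05 with 7 arrays, 2 were higher and 0 lower, against 5.81% and 3.46% of all features. The mean of these markers against PBS was 0.02 to 0.32 on PhIP mice 2 to 5, and -0.10 to 0.11 on PBS mice 1 to 3. Krt8, a keratin of simple epithelia, had 0.35 (SE 0.09), and the adhesion molecule Epcam 0.10 (SE 0.09). The probes of Vil1, Krt20, Cdx1 and Cdx2, further markers of the labelled tissue, were found on 0 arrays. All 11 smooth muscle markers were tested, with a median of -0.25 and 9 of 11 negative with 7 arrays. Their mean against PBS was -0.27, 0.01, -0.19 and -0.42 on PhIP mice 2 to 5, and -0.05, 0.03 and 0.02 on PBS mice 1 to 3, so PBS mouse 3 did not stand apart for muscle. Acta2, an actin of smooth muscle and myofibroblasts, had -0.47 (SE 0.07) and the smooth muscle myosin Myh11 -0.05 (SE 0.10) with 7 arrays. The 11 endothelial markers had a median of -0.02 with 7 arrays, with Pecam1 at 0.07 (SE 0.17). Their mean was -0.25 to 0.10 on PhIP mice 2 to 5, and -0.08 to 0.16 on PBS mice 1 to 3. The 8 immune markers had -0.15, with means of -0.34 to -0.06 on those PhIP arrays and -0.19 to 0.20 on the PBS arrays, and the Ptprc probes were found on 0 arrays. For the 6 neuron and glia markers the median was 0.11, with S100b at 0.11 (SE 0.25), and means of -0.04 to 0.47 on PhIP mice 2 to 5 and -0.43 to 0.35 on PBS mice 1 to 3. The 7 adipocyte markers had 0.21, with Adipoq at 0.73 (SE 0.29), and means of 0.03 to 0.60 on PhIP mice 2 to 5 and -0.24 to 0.40 on PBS mice 1 to 3. Whether the share of stromal cells in each scraping moved with the matrix values was not tested.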

How the data were processed

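Per the file headers, the 1-colour arrays were scanned at a wavelength of 635 nm, with spots quantified by GenePix Pro 4.1.1.4. The deposited scanner intensity used is the median of a spot less its local background. The deposited flag is a quality score that marks spots as found, not found or bad. The authors' deposited series matrix holds log2 values with a constant added per array. Its column for PhIP mouse 1 equals the scan deposited with PhIP mouse 2, and its column for PhIP mouse 2 equals no scan used here, so the matrix served as an alternative.

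Of 38880 spots, 35078 were mouse probes. Intensities were quantile normalized between arrays, raised to a floor of 21.25 (percentile 5 of found spots) and put on the log2 scale. Probes found on at least 3 arrays were kept, and 23 flagged bad were left out. RefSeq accessions named 23071 probes by a table of assembly GRCm38.p6, and each gene was read from its brightest probe. The 2 groups were compared in R 4.3.3 using limma 3.58.1 (lmFit, eBayes with trend), 2-sided, with Benjamini-Hochberg adjustment over 15854 features and a threshold of 0.05. Arrays were normalized again whenever any was left out, and intensities printed per array are from the normalization of all 8. Errors are limma SE or SD. The limma fit was tested on simulated data drawn independently for each gene. The steps before the fit, and deviations that genes share on an array, were not covered by it.

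The members and lists were chosen with earlier results of these data known. Values on every array are given for the 14 members of smallest p with 8 arrays and for Dcn, Fn1 and Pdgfra, and for Mgp, which was added after its values were seen. Of each related list up to 3 genes of smallest p could be named, and of each marker list its defining genes. Alternatives covered the arrays used, batches, weights, background, scaling, filters, probes and the source of values. Same-numbered mice deviated with correlations of -0.09, 0.19 and -0.12, so the numbers were not taken as pairs. Plots used matplotlib 3.10.9 (Python 3.11.15).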

Additional observations from a re-analysis of the deposited data

Results flagged for a closer look

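Among the 5 PhIP arrays, 40 values (35 genes and 5 group means) were searched for 1 array far from the other 4, and 9 genes had one, where chance would flag about 1 in 20 independent groups. The genes share their arrays and are not independent. Of these, 8 lay on the scan of PhIP mouse 1, which found 21.38% of probes. Its log2 intensity was 9.04 for Col1a1, 5.84 for Nid1, 4.94 for Fbln2 and 10.43 for Mgp, each below the other PhIP arrays. It stood at the floor of 4.41 for Col5a2, Lum and Fn1. For Fbln1 it was above the others, at 9.99. The remaining one was PhIP mouse 3 for Col6a2, at 8.80, above the other PhIP arrays. The 7-array values in the report leave out PhIP mouse 1.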

How the results depend on the processing

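The results were recomputed under 28 other settings, of which 7 were chosen after the data were seen. All 140 recomputed medians of the member groups were negative, and 124 moved by less than 1 SD between replicates. That SD includes the scan of PhIP mouse 1, and leaving out the eBayes trend cannot change a fold change. Of 472 recomputed values of the 17 named members, 462 kept their direction. The number of features called by limma moved widely around the 2 found with all arrays. Leaving out 1 array gave 0 to 5. Settings with 0 were the mouse number as a replicate block, re-dipped arrays alone, arrays not re-dipped alone, 75th percentile scaling and the mean of a gene's probes, with 304, 147, 1288, 366 and 506 features at an unadjusted p under 0.05. It was 1 with re-dipping as a block and without an eBayes trend, 11 with array weights and 20 in the series matrix. With PhIP mouse 1 left out it was 22 with slide range as a block, 0 with the replicate block (607 unadjusted), 6 with array weights and 6 with 75th percentile scaling. It was 8 with PBS mouse 3 also left out and 11 in the matrix turned back to intensities.

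Leaving out 1 array at a time gave medians of -0.72 to -0.34 for all members, -1.60 to -0.93 for fibrillar collagens, -0.72 to -0.40 for basement membrane, -0.72 to -0.29 for other matrix and -0.51 to -0.078 for the surface genes. The values nearest 0 were those that left out PBS mouse 3. In the fit that blocks on slide range the medians in that order were -1.06, -1.77, -1.03, -1.06 and -0.62, and within arrays not re-dipped -0.99, -1.80, -0.94, -0.99 and -0.86. Within re-dipped arrays the fibrillar median was -0.83 and that of the surface genes -0.020. With PhIP mouse 1 out and slide range as a block it was -0.95 for all members and -0.84 for the surface genes. Without PhIP mouse 1 and PBS mouse 3 the fibrillar median was -0.86. The replicate block gave -0.54 for all members and -1.19 for fibrillar collagens, and changed no call of a member.

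Scaling to the 75th percentile moved the median of all features to 0.12, against 0.01. Under it the member median was -0.35, which is -0.47 relative to that shift, and Vim turned to 0.026. Dcn ranged over -0.079 to 0.027 with 1 array left out, turning positive without PhIP mouse 5, and turned to 0.066 with the replicate block, 0.0056 in re-dipped arrays, 0.42 with 75th percentile scaling and 0.10 in the series matrix. Its largest move was to -0.89, with the mean of its probes. With PhIP mouse 1 out it was 0.048 with the replicate block and 0.028 with 75th percentile scaling. Fn1, read from its brightest probe, turned to 0.20 in arrays not re-dipped. It was also 0.20 with PhIP mouse 1 out and slide range as a block. The causes were not tested. Estimates with slide range as a block, or within arrays not re-dipped, rest on PBS mouse 3.

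The number of arrays limits the precision, and on the scan of PhIP mouse 1 so does signal over background.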
